A study of Sus scrofa with 12 samples.

Results

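Potassium channels were examined as a gene family in the hypothalamus of pigs that differed in feed efficiency. Members were all genes whose symbol on the array's annotation starts with KCN, followed by letters and a number, with KCNJ13 left out, and each gene was represented by its brightest probe set, the one with the highest mean over the 12 arrays. This gave 77 genes with 143 probe sets, out of 13755 genes with a symbol on the array. They comprised 30 voltage-gated subunits, 13 inward rectifiers, 14 two-pore subunits, 6 grouped as calcium-activated and 14 auxiliary subunits that do not form a pore. The calcium-activated group, so named below, also holds the sodium-activated KCNT1 and KCNT2 and the sperm channel gene KCNU1. The rule itself uses names and no measured value, but the family was chosen with earlier results of these data known. Other potassium channel genes of the pig were not analysed here.

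RNA came from whole hypothalamus, which governs hunger, body weight and the pituitary, with 1 Affymetrix Snowball array, a whole-transcript pig array, per pig. All 12 pigs were 140 days old, 6 of high and 6 of low feed efficiency, and each group held 3 males and 3 females. The sources used here do not give the measure behind the feed efficiency label, the breed, or whether males were castrated. Values were taken as log2 signals. In bulk tissue, fewer cells of a type and less RNA per cell cannot be told apart.

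Potassium channels let potassium leave a neuron and so set its resting potential, end its action potentials and limit how often it fires. Voltage-gated channels open on depolarization, inward rectifiers hold the resting potential or couple it to metabolism and to G proteins, two-pore channels carry the leak current, and calcium-activated channels follow spikes. In hypothalamic neurons that sense glucose, the ATP-sensitive channel built from KCNJ11 and the sulfonylurea receptor ABCC8 closes as ATP rises, and in astrocytes KCNJ10 takes up potassium released by firing neurons.

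The arrays were alike in level and close to each other. Array medians lay between 4.35 and 4.42, and correlations between pairs of arrays between 0.974 and 0.982. The 9 tested hypothalamic marker genes had mean signals from 5.92 for SIM1 and 6.33 for NKX2-1 to 11.55 for AVP and 11.80 for OXT. Thalamic markers gave signal too, from 6.63 for LEF1 to 8.95 for PRKCD. Of 85 genes listed as markers of hypothalamus, its cell types and neighbouring tissue, 72 were tested, and 0 differed between the feed efficiency groups at an adjusted p of 0.05 in limma (lowest adjusted p 0.775, 35 lower and 37 higher in the low group, 1 and 3 of them at an unadjusted p under 0.05). The summed neuron markers ran from 13.22 to 13.41 on the log2 scale in the high group and from 13.33 to 13.43 in the low group, and the summed astrocyte markers from 14.09 to 14.41 and from 14.11 to 14.26. By list, 8 of 9 hypothalamus markers (median difference -0.07), 5 of 6 oligodendrocyte markers (-0.10) and 4 of 5 oligodendrocyte precursor markers (-0.11) were lower in the low group. So were 4 of 6 pericyte and smooth muscle markers (-0.07). Higher were 7 of 9 neuron markers (0.06), 6 of 8 astrocyte markers (0.02), 4 of 5 thalamus markers (0.05) and 5 of 7 endothelial markers (0.05). The other lists were more evenly split. The part of these markers in the results below was not tested.

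The signals of the family ran from near the dimmest on the array to well above its median. The median over the 77 genes was 5.91, beside 5.93 for all 13755 genes, and the range ran from 1.58 for KCNA4 to 10.14 for KCNAB2. Median signals were 6.40 for the calcium-activated genes, 5.99 for the voltage-gated genes, 5.98 for the inward rectifiers, 5.32 for the auxiliary genes and 5.24 for the two-pore genes. These are descriptions of array signal and not of transcript numbers, since each probe set binds with its own strength. The 69 background probe sets of the array, whose signal rose with their share of G and C, had means from 1.30 to 7.49 with a median of 2.35, and 67 of the 77 genes lay within that range. The 10 genes above it were KCNAB2, KCNIP1, KCNIP3, KCNMA1, KCNA6, KCNC2, KCNJ10, KCNC1, KCNJ3 and KCND2. The 3 genes below the limit for testing, a mean of 2.43, were KCNA4, KCNK17 at 1.96 and KCNK2 at 2.34, which left 74 genes in the tests.

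**Figure D1:**
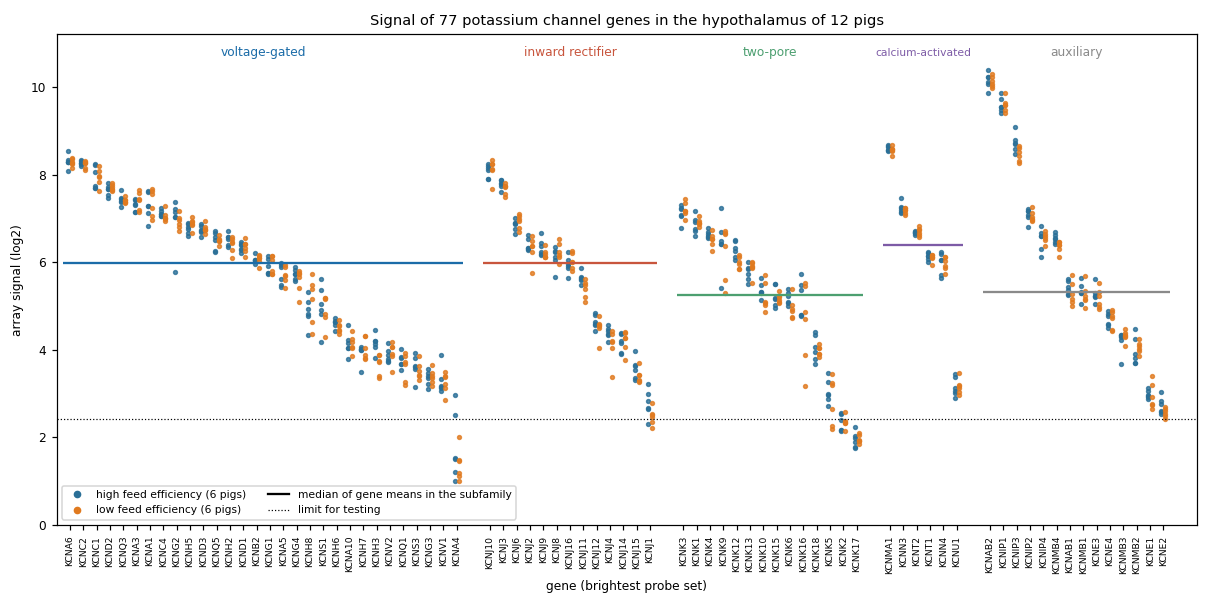
Array signal (log2) of each of the 77 potassium channel genes in each pig, ordered by mean signal within each subfamily. Points are pigs, blue for high and orange for low feed efficiency (6 each), thick lines are the medians of gene means, and the dotted line is the limit for testing at 2.43; the points of both groups overlap for all 74 genes above that limit.

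Among voltage-gated genes, the Shaker-type KCNA6 and the Shaw-type KCNC2 and KCNC1 were brightest, followed by the Shal-type KCND2. KCNA6 had a signal of 8.30 ± 0.15 in high against 8.28 ± 0.09 in low feed efficiency pigs (SD, n = 6 each). KCNC2, a subunit of channels that let neurons fire fast, stood at 8.27 ± 0.05 and 8.23 ± 0.09 (SD, n = 6 each), the smallest spread of all 74 genes with a residual SD of 0.058. Its sister KCNC1 stood at 7.94 ± 0.26 and 7.94 ± 0.20 (SD, n = 6 each). KCNA1, the Shaker-type subunit that limits firing in axons, ran from 6.84 to 7.62 around a median of 7.29 in the high group and from 6.96 to 7.67 around 7.41 in the low group. KCND2, which carries the fast A-type current, had 7.65 ± 0.12 and 7.70 ± 0.07, and its relative KCND3 had 6.73 ± 0.11 and 6.77 ± 0.10 (SD, n = 6 each). KCNA4, the Shaker-type gene of A-type currents, lay below the limit for testing in both groups, at 1.78 ± 0.78 and 1.37 ± 0.36 (SD, n = 6 each).

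KCNQ3 and KCNQ5 carry the M-current, whose slow flow restrains repetitive firing. KCNQ3 had 7.43 ± 0.13 in high against 7.41 ± 0.05 in low feed efficiency pigs, and KCNQ5 had 6.49 ± 0.21 and 6.50 ± 0.08 (SD, n = 6 each). KCNH2, the ERG channel subunit, had 6.52 ± 0.14 and 6.40 ± 0.19 (SD, n = 6 each), a low-minus-high difference of -0.12 ± 0.10 (SE). None of these 3 had an unadjusted p under 0.05 over both sexes in the limma fit, with values of 0.754, 0.935 and 0.255. The other probe sets of KCNQ5 and KCNH2 differed by 0.18 and -0.28 (unadjusted p 0.199 and 0.083 in limma). For KCNQ3 the difference was 0.11 in males and -0.16 in females, as described with the interaction.

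Among inward rectifiers, KCNJ10 was brightest, at 8.08 ± 0.15 in high against 8.12 ± 0.23 in low feed efficiency pigs (SD, n = 6 each). KCNJ16, which forms mixed channels with KCNJ10 in glia, had 5.94 ± 0.20 and 6.02 ± 0.18 (SD, n = 6 each). The genes of the G-protein-gated channels, which slow neurons when GABA-B or opioid receptors are active, were KCNJ3 at 7.78 ± 0.10 and 7.67 ± 0.12, KCNJ6 at 6.85 ± 0.13 and 6.93 ± 0.16, and KCNJ9 at 6.34 ± 0.19 and 6.20 ± 0.10 (SD, n = 6 each). Their low-minus-high differences were -0.11, 0.08 and -0.15, each with an unadjusted p above 0.13 in limma. The strong rectifiers KCNJ2, KCNJ12 and KCNJ4 each had 1 low feed efficiency pig below the others, at 5.75, 4.04 and 3.37, a different pig for each gene. Mean signals in high and low feed efficiency were 6.40 ± 0.14 and 6.30 ± 0.30 for KCNJ2, 4.64 ± 0.15 and 4.50 ± 0.25 for KCNJ12, and 4.39 ± 0.13 and 4.09 ± 0.38 for KCNJ4 (SD, n = 6 each).

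Among two-pore genes, the acid-sensitive KCNK3 was brightest, at 7.11 ± 0.19 in high against 7.21 ± 0.17 in low feed efficiency pigs (SD, n = 6 each). KCNK1, a weak inward rectifier of the class, had 6.85 ± 0.20 and 6.91 ± 0.09, and KCNK4, a channel opened by membrane stretch, had 6.64 ± 0.08 and 6.51 ± 0.16 (SD, n = 6 each). Of the other stretch-activated genes, KCNK10 had 5.36 ± 0.17 and 5.21 ± 0.33, while KCNK2 lay below the limit for testing at 2.33 ± 0.19 and 2.35 ± 0.13 (SD, n = 6 each). No two-pore gene lay above the highest background probe set.

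In the calcium-activated group, KCNMA1, the pore of the large-conductance BK channel, was brightest. Its signal was 8.60 ± 0.06 in high against 8.56 ± 0.08 in low feed efficiency pigs (SD, n = 6 each). KCNN3, a small-conductance channel gene, had 7.24 ± 0.12 and 7.18 ± 0.07, and the sodium-activated KCNT2 and KCNT1 had 6.67 ± 0.03 and 6.70 ± 0.09, and 6.13 ± 0.08 and 6.10 ± 0.09 (SD, n = 6 each). KCNN4, the intermediate-conductance channel of blood and immune cells, had 5.98 ± 0.25 and 5.96 ± 0.15, and KCNU1, a sperm channel gene, was dim at 3.15 ± 0.22 and 3.16 ± 0.17 (SD, n = 6 each).

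The brightest genes of the whole family were auxiliary. KCNAB2, the beta subunit of Shaker-type channels, had 10.15 ± 0.18 in high against 10.12 ± 0.12 in low feed efficiency pigs, and its relative KCNAB1 had 5.42 ± 0.15 and 5.29 ± 0.27 (SD, n = 6 each). The KCNIP genes encode calcium-binding proteins that attach to Shal-type channels: KCNIP1 had 9.59 ± 0.17 and 9.60 ± 0.15, KCNIP2 had 7.08 ± 0.16 and 7.05 ± 0.12, and KCNIP4 had 6.52 ± 0.25 and 6.56 ± 0.12 (SD, n = 6 each). KCNE3, a small subunit that modifies KCNQ channels, had 5.27 ± 0.19 and 5.17 ± 0.23 (SD, n = 6 each).

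The first comparison asked which of these genes differ between low and high feed efficiency. No gene of the family passed. At an adjusted p of 0.05 in limma, 0 of the 74 genes were called, beside 0% of all 12609 genes tested, and the smallest adjusted p was 0.764 in the family and 0.714 over all 35791 probe sets. Unadjusted p values under 0.05 were found for 5 genes, all with a lower signal in low feed efficiency: KCNH3, KCNK12, KCNJ11, KCNMB4 and KCNIP3. That is 6.76% of the family, beside 5.5% of all genes tested, of which 2.97% were lower and 2.53% higher, so the share lay near the background.

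KCNH3 encodes a subunit of the ether-à-go-go-like channels found mainly in brain. Its signal was 4.15 ± 0.21 in high feed efficiency pigs, from 3.81 through a median of 4.16 to 4.46, and 3.66 ± 0.24 in low feed efficiency pigs, from 3.34 through 3.74 to 3.89 (SD, n = 6 each). The groups overlapped, since the lowest pig of the high group lay below the highest of the low group. The difference was -0.48 ± 0.13 (SE) with a 95% interval from -0.77 to -0.19, at an unadjusted p of 0.0036 and an adjusted p of 0.764 in limma. It was -0.47 in males and -0.49 in females, and its unadjusted p stayed under 0.05 without each of the 12 pigs in turn. Background probe sets reached higher signals than this gene, and only 1 probe set measured the gene.

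KCNK12 encodes a two-pore subunit of the THIK class, which includes KCNK13. It ran from 6.05 through 6.28 to 6.51 in the high group and from 5.84 through 5.98 to 6.16 in the low group, with means of 6.29 ± 0.19 and 5.99 ± 0.13 (SD, n = 6 each). The 3 low females lay below all 3 high females, whereas the males overlapped. The difference was -0.30 ± 0.09 (SE), with an interval from -0.51 to -0.09, at an unadjusted p of 0.0081 and an adjusted p of 0.764 in limma, and it too kept an unadjusted p under 0.05 without each pig in turn. KCNK13 itself stood the other way, at 5.76 ± 0.18 and 5.86 ± 0.17 (SD, n = 6 each), with a difference of 0.11 ± 0.09 (SE).

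KCNJ11, the pore of the ATP-sensitive channel of neurons, ran from 5.47 through 5.63 to 5.87 in the high group and from 5.09 through 5.44 to 5.62 in the low group, with means of 5.64 ± 0.13 and 5.39 ± 0.20 (SD, n = 6 each). The groups overlapped. The difference was -0.26 ± 0.10 (SE) at an unadjusted p of 0.027 and an adjusted p of 0.796 in limma, and an unadjusted p under 0.05 remained in 8 of the 12 fits that left out 1 pig. The other probe set of KCNJ11, at 4.93, stood 0.12 higher in low feed efficiency, and with the mean of both probe sets the difference was -0.07 (unadjusted p 0.496 in limma). The other subunits of the ATP-sensitive channels did not pass either: KCNJ8, the pore in vascular muscle, had 6.11 ± 0.24 and 6.23 ± 0.21, ABCC8 had 6.47 ± 0.07 and 6.56 ± 0.13, and ABCC9 had 5.59 ± 0.25 and 5.60 ± 0.22 (SD, n = 6 each).

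The remaining 2 were auxiliary genes. KCNMB4, the BK beta subunit of neurons, ran from 6.41 through 6.54 to 6.70 in the high group and from 6.13 through 6.40 to 6.46 in the low group, with means of 6.54 ± 0.10 and 6.36 ± 0.12 (SD, n = 6 each). The difference was -0.19 ± 0.07 (SE), at an unadjusted p of 0.028 and an adjusted p of 0.796 in limma. An unadjusted p under 0.05 remained in 8 of the 12 fits that left out 1 pig. The other probe set of KCNMB4, at 5.49, differed by -0.80 in the same direction. With the mean of both probe sets the difference was -0.49 (unadjusted p 0.001 in limma). The lowest adjusted p of KCNMB4 over all alternatives was 0.634 in limma. KCNIP3, whose protein binds Shal-type channels and also acts as a calcium-dependent repressor of transcription, ran from 8.46 through 8.71 to 9.08 and from 8.26 through 8.47 to 8.65, with means of 8.72 ± 0.21 and 8.46 ± 0.16 (SD, n = 6 each). Its difference was -0.26 ± 0.11 (SE), at an unadjusted p of 0.038 and an adjusted p of 0.799 in limma, and only 4 of the 12 fits without 1 pig kept an unadjusted p under 0.05. Both genes overlapped between the groups.

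**Figure D2:**
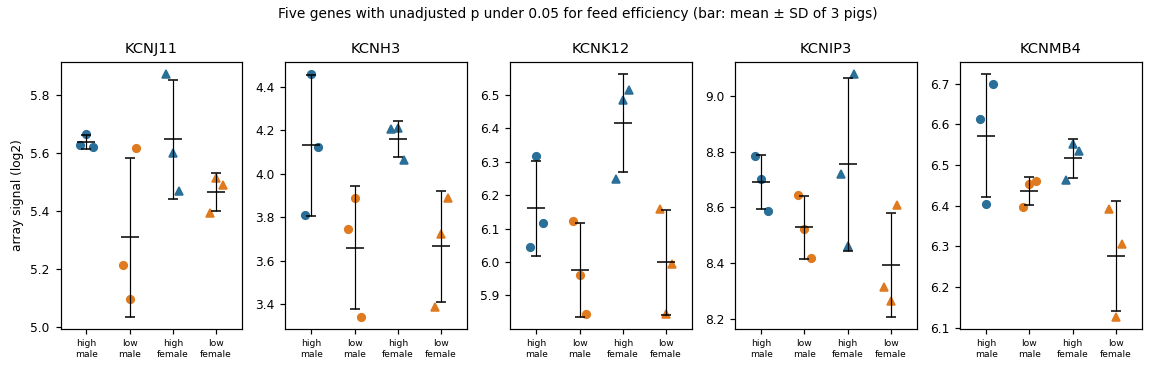
Array signal (log2) of KCNJ11, KCNH3, KCNK12, KCNIP3 and KCNMB4 in each pig, by feed efficiency and sex (circles males, triangles females; blue high, orange low). Bars are the mean ± SD of 3 pigs; each panel has its own axis, and in none do the low pigs of both sexes together lie wholly below the high pigs.

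The pig identifiers fall in a lower run of 8 pigs, 6 males and 2 females, and an upper run of 4 females, and each run held both feed efficiency groups equally; whether the runs mark a batch was not tested. The low-minus-high difference in the lower and the upper run was -0.56 and -0.33 for KCNH3, -0.16 and -0.58 for KCNK12, and -0.37 and -0.03 for KCNJ11. It was -0.12 and -0.33 for KCNMB4 and -0.22 and -0.33 for KCNIP3. The genes were chosen by their difference in these same pigs, so the signs within runs are no separate evidence. With the run as a term in the fit, 6 genes of the family had an unadjusted p under 0.05. The share of all genes in that fit was not taken, so this count has no background beside it.

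The next lower gene was the strong rectifier KCNJ4, at -0.30 ± 0.14 (SE) with an unadjusted p of 0.063, and without the low feed efficiency pig numbered 2, at 3.37, its difference was -0.16. On the higher side no gene had an unadjusted p under 0.05 with its brightest probe set. A dimmer probe set of KCND3, at 5.21, stood 0.36 ± 0.09 (SE) higher in low feed efficiency (unadjusted p 0.0027 in limma). By brightest probe set, the 6 higher members nearest to an unadjusted p of 0.05 were KCNH5 at 0.12 ± 0.08, KCNK13 at 0.11 ± 0.09, KCNK3 at 0.09 ± 0.08, KCNH8 at 0.25 ± 0.24, KCNMB3 at 0.12 ± 0.11 and KCNA3 at 0.10 ± 0.10 (SE). Their unadjusted p in limma ran from 0.185 for KCNH5 to 0.340 for KCNA3. Single pigs moved 5 of these values by over 1.5 times: without 1 pig in turn, KCNH8 ran from 0.12 to 0.40, KCNA3 from 0.05 to 0.16, KCNK13 from 0.05 to 0.16, KCNK3 from 0.05 to 0.13 and KCNMB3 from 0.02 to 0.16. With the mean of its probe sets KCNK3 had 0.015. KCNH5 and KCNH8 belong to the ether-à-go-go group like KCNH3, and KCNA3 is a Shaker-type gene at 7.30 ± 0.12 in high against 7.40 ± 0.21 in low feed efficiency pigs (SD, n = 6 each).

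By subfamily, the differences lay close to 0 with more genes below than above it. Of the 74 genes, 47 had a lower and 27 a higher signal in low feed efficiency, which puts 63.5% on the lower side, beside 50.5% of all genes tested. The median difference was -0.0284 in the family and -0.0017 over all genes. It was -0.0015 in the voltage-gated genes (16 of 29 lower), -0.11 in the inward rectifiers (8 of 13), -0.14 in the two-pore genes (9 of 12), -0.03 in the calcium-activated genes (4 of 6) and -0.03 in the auxiliary genes (10 of 14). With the arrays shifted to equal medians, the family's median became -0.0066 and 40 of 74 genes were lower. The count of lower genes thus depended on the scaling. That shift moves the difference of every gene by the same amount. The share of all genes lower after it was not taken, so 40 of 74 has no background beside it. Per pig, the median deviation of the inward rectifiers from each gene's mean ran from -0.01 through 0.03 to 0.17 in the high group and from -0.11 through -0.05 to 0.02 in the low group, and the groups overlapped. For the two-pore genes it ran from -0.05 through 0.05 to 0.20 and from -0.14 through -0.01 to 0.07, which overlapped as well.

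**Figure D3:**
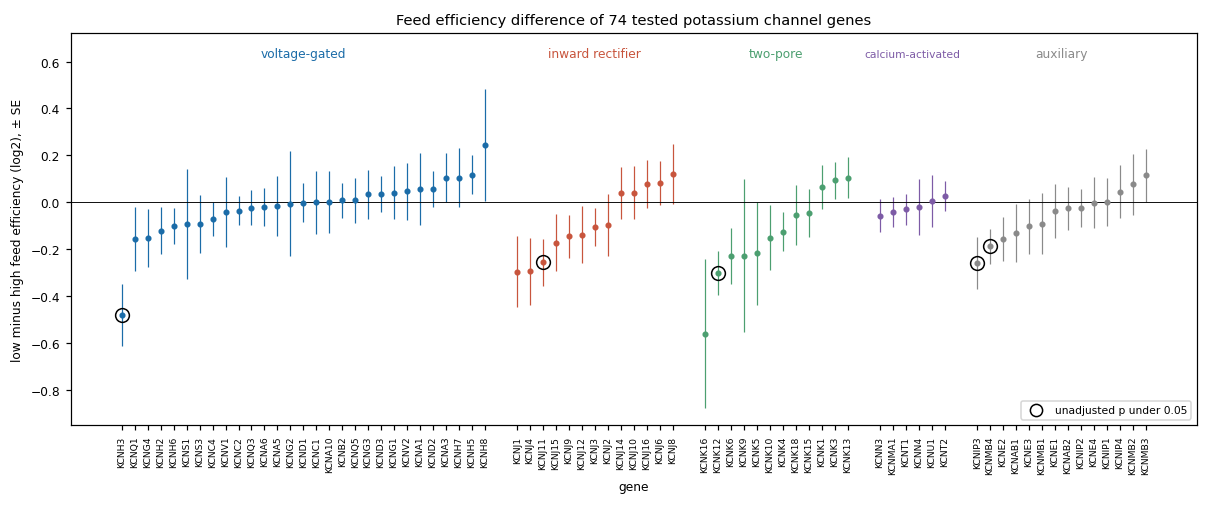
Low-minus-high feed efficiency difference (log2, points) with its SE (bars) for each of the 74 tested genes, ordered within each subfamily; rings mark an unadjusted p under 0.05. The 5 ringed genes all lie below 0, and the differences range from -0.56 for KCNK16 to 0.25 for KCNH8.

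For 66 of the 74 genes the 95% interval of the difference excluded a 1.5-fold change in either direction, which is 89.2%, beside 88.7% of all genes tested. These are intervals of the brightest probe sets, and dimmer probe sets of some genes differed more. Among these, the other probe set of KCNMB4 differed by -0.80 ± 0.25, that of KCNIP1 by -0.45 ± 0.12 and that of KCNG1 by -0.33 ± 0.09 (SE). A dimmer probe set of KCND3 differed by 0.36 ± 0.09 (SE). The 8 genes whose interval reached a 1.5-fold change were KCNH3, KCNH8, KCNS1, KCNJ1, KCNJ4, KCNK5, KCNK9 and KCNK16. For KCNJ10 the interval ran from -0.21 to 0.29, for KCNJ8 from -0.16 to 0.40, and for KCNMA1 from -0.18 to 0.10. No gene of the family had groups that did not overlap, and among all genes 0.143% had all low pigs below all high pigs and 0.0872% the reverse.

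Spread between pigs was measured as the residual SD within the 4 groups of feed efficiency and sex. Its median was 0.18 in the family and 0.177 over all genes. The calcium-activated genes had the smallest median, 0.09 (from 0.07 to 0.19), beside 0.17 in the auxiliary, 0.19 in the voltage-gated, 0.19 in the two-pore and 0.20 in the inward rectifier genes. Averaging each gene's probe sets raised the calcium-activated median to 0.19, so the small value held for the brightest probe sets only. Since spread falls with signal on the array, each gene was also set against the median of all genes within 1 unit of signal, and 49 of 74 lay below it: 6 of 6 calcium-activated, 17 of 29 voltage-gated, 9 of 13 inward rectifier, 8 of 12 two-pore and 9 of 14 auxiliary genes. Brightest probe sets were chosen the same way for all genes.

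The most variable gene was KCNK9, the acid-sensitive relative of KCNK3, with a residual SD of 0.67. It ran from 5.41 through 6.45 to 7.23 in the high group and from 5.31 through 6.50 to 6.71 in the low group, and 3 pigs stood apart at 5.31, 5.41 and 5.59 while the other 9 lay between 6.36 and 7.23. KCNK16 followed with 0.53, the ether-à-go-go-like KCNH8 with 0.49 and the silent subunit gene KCNS1 with 0.47. KCNH8 ran from 4.34 to 5.32 in the high and from 4.37 to 5.73 in the low group, and KCNS1 from 4.18 to 5.62 and from 4.29 to 5.19. KCNG2, another silent subunit gene, had a residual SD of 0.38 with 1 high feed efficiency pig at 5.77 and the other 11 pigs between 6.70 and 7.37. In the other subfamilies the widest spreads were 0.27 for KCNJ4 and 0.26 for KCNJ1, 0.19 for KCNU1 and 0.16 for KCNN4, and 0.23 for KCNAB1 and 0.22 for KCNE3.

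**Figure D4:**
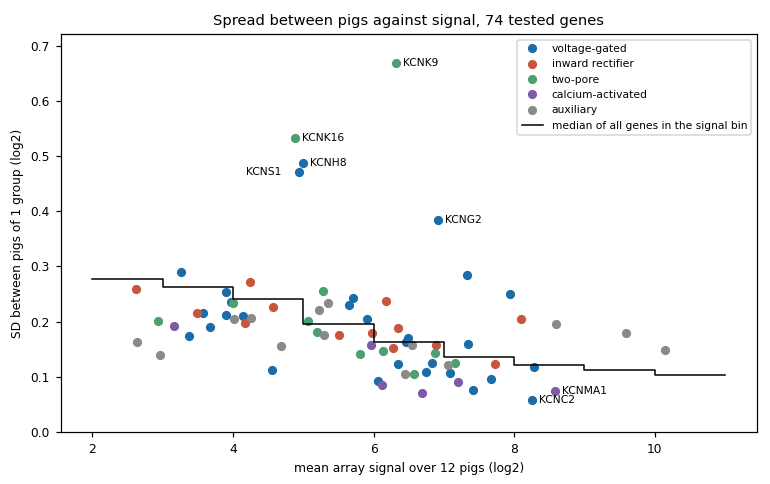
Residual SD between pigs of 1 group (log2) against mean array signal (log2) for the 74 tested genes, coloured by subfamily; the line is the median of all genes in each unit of signal. KCNK9, KCNK16, KCNH8, KCNS1 and KCNG2 lie far above the line, and the 6 calcium-activated genes lie below it.

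The second comparison set females against males. No gene of the family passed an adjusted p of 0.05 in limma (smallest 0.935), beside 0% of all genes. Over all tested probe sets, with or without a symbol, the smallest adjusted p was 9.1e-10 in limma. The sexes thus did differ on the array, in a probe set that is not the brightest of a gene with a symbol. Unadjusted p values under 0.05 were found for 4 genes, all higher in females and 3 of them two-pore genes: KCNK3, KCNK13, KCNK16 and KCNJ14. That is 5.41% of the family, beside 3.95% of all genes, of which 2.1% were higher and 1.85% lower in females. Sex was partly tied to the run of pig identifiers, since all males and 2 of the 6 females had identifiers in the lower run. With that run as a term, 1 gene of the family had an unadjusted p under 0.05, and the share of all genes was not taken.

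KCNK3 ran from 6.78 through 7.07 to 7.17 in males and from 7.16 through 7.26 to 7.45 in females, with means of 7.03 ± 0.14 and 7.28 ± 0.10 (SD, n = 6 each). The highest male lay just above the lowest female, and the others did not overlap. The difference was 0.25 ± 0.08 (SE), at an unadjusted p of 0.0085, which stayed under 0.05 without each pig in turn, and its other probe sets averaged 0.15. KCNK13 had 5.70 ± 0.19 in males and 5.92 ± 0.07 in females, and KCNJ14, a strong rectifier gene, had 4.05 ± 0.21 and 4.30 ± 0.14 (SD, n = 6 each). KCNK16, of the alkaline-activated TALK class known from pancreatic beta cells, had 4.51 ± 0.88 and 5.25 ± 0.32 (SD, n = 6 each). An unadjusted p under 0.05 remained in 8 of the 12 fits without 1 pig for KCNK13, in 5 for KCNJ14 and in 4 for KCNK16, and with the mean of its probe sets KCNJ14 had 0.06 (unadjusted p 0.440 in limma). On the lower side the 4 nearest were KCNIP2 at -0.15 ± 0.08, KCNK10 at -0.20 ± 0.14, KCNMB4 at -0.11 ± 0.07 and KCNS3 at -0.18 ± 0.13 (SE). With the mean of its probe sets, KCNMB4 turned to 0.21, whereas KCNIP2 had -0.25 (unadjusted p 0.0045 in limma). With the run of pig identifiers as a term, the brightest probe set of KCNIP2 had -0.04 (unadjusted p 0.757 in limma).

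The third comparison asked whether the feed efficiency difference was the same in both sexes. Sex was partly tied to the run of pig identifiers here too, so differences by sex and by run cannot be fully told apart. No gene passed an adjusted p of 0.05 in limma, beside 0% of all genes, and the smallest adjusted p in the family was 0.469. Unadjusted p values under 0.05 were found for 8 genes, which is 10.8% of the family beside 5.28% of all genes. The difference was more positive in females for KCNK5, KCNE1, KCNMB1, KCNQ1, KCNN4 and KCNK16, beside 2.7% of all genes, and more negative in females for KCNJ2 and KCNIP4, beside 2.58%. The count ranged from 3 to 9 without 1 pig, and was 3 without the high feed efficiency pig numbered 6. These values are of brightest probe sets, and some dimmer ones differed more. Among these, a probe set of KCNMB3 had -2.48 and 1 of KCNC2 -0.77 (unadjusted p 0.0052 and 0.018 in limma). A dim probe set of KCNN3 had -2.87 (unadjusted p 0.068 in limma).

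By brightest probe set, KCNK5, also of the TALK class, had the largest such value, 1.30 ± 0.23 (SE). Its unadjusted p was 0.00018 and its adjusted p 0.469 in limma. High feed efficiency males stood at 2.96, 3.27 and 3.48 and low males at 2.19, 2.27 and 2.65. High females stood at 2.72, 2.89 and 2.98 and low females at 3.19, 3.25 and 3.44. All low males thus lay below all high males and all low females above all high females. The low-minus-high difference was -0.86 ± 0.16 in males (adjusted p 0.298 in limma) and 0.43 ± 0.16 (SE) in females. The unadjusted p reached at most 0.00066 without each pig in turn, but the signal was near the limit for testing, from 2.19 to 3.48, and a single probe set measured the gene.

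Looked at after the values were seen, KCNQ3 was the only other gene with groups apart in opposite ways, with high males at 7.25 to 7.40 and low males at 7.42 to 7.50, and with high females at 7.44 to 7.66 and low females at 7.36 to 7.37. Its interaction was -0.26 ± 0.13 (SE) at an unadjusted p of 0.076 in limma. These 2 genes are 2.70% of the family, beside 0.642% of all genes. In males 9 genes had all low pigs below all high pigs and 6 the reverse, beside 7.78% and 6.87% of all genes, and in females 7 and 1, beside 4.77% and 3.94%.

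**Figure D5:**
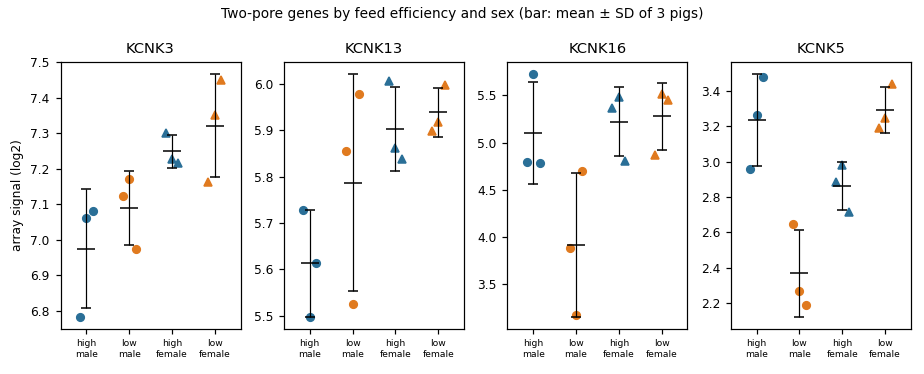
Array signal (log2) of the two-pore genes KCNK3, KCNK13, KCNK16 and KCNK5 in each pig, by feed efficiency and sex (circles males, triangles females; blue high, orange low). Bars are the mean ± SD of 3 pigs and each panel has its own axis; KCNK5 stands at 2.19 to 2.65 in low males and at 3.19 to 3.44 in low females.

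The other genes of this comparison spread over several subfamilies. KCNE1 and KCNQ1, which together form the slow delayed rectifier of heart and inner ear, had interaction values of 0.55 ± 0.18 and 0.59 ± 0.22 (SE). Both were dim, with mean signals of 2.96 and 3.68. The other probe set of KCNQ1, at 2.80, had an interaction of 0.04 (unadjusted p 0.770 in limma). For KCNE1, high males stood at 2.88 to 3.13, low males at 2.64 to 2.75, high females at 2.93 to 2.97 and low females at 2.93 to 3.41, so only the males were apart. KCNMB1, the BK beta subunit of smooth muscle, had 0.58 ± 0.21, KCNN4 had 0.50 ± 0.19 and KCNK16 had 1.24 ± 0.55 (SE). KCNK16 stood at 3.17, 3.88 and 4.70 in low males and between 4.78 and 5.73 in the other 9 pigs. On the negative side were KCNJ2 at -0.56 ± 0.22, KCNIP4 at -0.44 ± 0.19 and KCNE4 at -0.40 ± 0.19 (SE), the last with an unadjusted p of 0.064. With the mean of a gene's probe sets KCNJ2 came to -0.10 and KCNE4 to -0.26. Of the 12 fits without 1 pig, KCNJ2 kept an unadjusted p under 0.05 in 9 and KCNIP4 in 4.

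Several members are neighbours in the genome. In the RefSeq annotation, KCNK5, KCNK17 and KCNK16 follow each other with 0 protein-coding genes between them, and KCNK5 and KCNK16 had interaction values of 1.30 and 1.24, while KCNK17 lay below the limit for testing. Other adjacent genes had interaction values of 0.03 and 0.18 (KCNJ9 and KCNJ10), -0.10 and 0.23 (KCNJ6 and KCNJ15), 0.12 and 0.58 (KCNIP1 and KCNMB1), and -0.0092, -0.33 and -0.20 (KCNA5, KCNA1 and KCNA6). With 1 gene between them, KCNJ2 and KCNJ16 had -0.56 and -0.09, and KCNA3 and KCNA10 had -0.33 and 0.44. By sex, the low-minus-high differences of KCNK5 and KCNK16 were -0.86 and -1.18 in males, and 0.43 and 0.06 in females. Feed efficiency differences of the adjacent genes were -0.22 and -0.56 for KCNK5 and KCNK16, -0.15 and 0.04 for KCNJ9 and KCNJ10, and 0.08 and -0.17 for KCNJ6 and KCNJ15. They were 0.0017 and -0.09 for KCNIP1 and KCNMB1, and -0.02, 0.06 and -0.02 for KCNA5, KCNA1 and KCNA6.

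Different probe sets of a gene gave different values. Of the 77 genes 39 had more than 1 probe set, and the brightest and the dimmest differed by a median of 1.54 units and by up to 6.97 in KCNMA1, which had 7. In 32 genes several probe sets were tested, and in 18 of these the others' mean feed efficiency difference had the sign of the brightest. KCNJ11, KCNJ2 and KCNJ3 were among those that had the opposite sign.

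Genes whose products assemble with potassium channels or restore the potassium gradient were read from the same fit. Of 52 listed, 39 were tested, and 0 were called, beside 0% of all genes, with 0 at an unadjusted p under 0.05 (lowest adjusted p 0.813). They comprised 19 lower and 20 higher genes with a median difference of 0.0027. The pump subunit ATP1B2 was nearest to the threshold, at 11.42 ± 0.09 in high and 11.26 ± 0.11 in low feed efficiency (SD, n = 6 each), a difference of -0.16 ± 0.07 (SE). The GABA-B receptor GABBR1, which acts through the KCNJ3 class, had -0.09, and AQP4, the water channel that lies beside KCNJ10 in astrocyte endfeet, had 0.01. The Shal-associated DPP6 and DPP10 had -0.02 and 0.06.

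Subunits known to form 1 channel were also correlated across the 12 pigs. Of 12 listed pairs 9 were measured, and 0 passed Benjamini-Hochberg adjustment over the 9 in a two-sided permutation test. The highest Pearson correlation was KCND2 with KCNIP4, r = 0.52 (permutation p 0.085, adjusted 0.298) and Spearman's rho = 0.30 (permutation p 0.342, adjusted 0.880). KCND2 with DPP10 had r = 0.50 (permutation p 0.094) and rho = 0.09 (permutation p 0.783), and without the 2 pigs farthest from the median of KCND2 its r was -0.33. KCNMA1 with KCNMB4 had r = 0.50 (permutation p 0.099) and rho = 0.50 (permutation p 0.104). The lowest was KCNJ11 with ABCC8 at r = 0.05, and the 9 values ran from 0.05 to 0.52. The order changed with the values used. After subtracting the mean of each of the 4 feed efficiency and sex groups, KCNJ11 with ABCC8 had r = 0.50 (permutation p 0.101), KCND2 with DPP10 was highest at r = 0.63 (permutation p 0.027, adjusted 0.247), and KCNA1 with KCNAB2 was lowest at r = 0.0018. With the mean of each gene's probe sets, KCNJ3 with KCNJ6 had r = 0.67 (permutation p 0.016, adjusted 0.140), and no pair passed the adjustment in either setting.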

How the data were processed

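The authors deposited a table of processed values, 1 per probe set and array, which were read as log2 signals from their range, near 0 to below 16, since no label states the scale. Per the submitters' processing notes, GCOS version 1.1.1 was used. The sources used here give no background correction, summary or normalization, and folds rest on the assumed scale. The table had 47845 rows. The 123 control rows and, of the other 47722, the 25 percent with the lowest mean (below 2.43) were left out, which left 35791 probe sets. The platform annotation gave 1 symbol to 26426 rows and none to 21419, and all 77 members carried a symbol current in RefSeq (used for names and neighbours only).

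Limma (version 3.58.1, R version 4.3.3) was run with lmFit and eBayes on all 35791 probe sets, with Benjamini-Hochberg adjustment over them. The feed efficiency and sex differences came from a model with both as terms, and the interaction from a fit of the 4 groups of 3 pigs. Counts over all genes use the brightest tested probe set of 12609 genes. Correlations used 100000 permutations in scipy version 1.17.1. Plots were drawn with matplotlib version 3.10.9. On simulated data with the spreads of the 35791 probe sets, 74 percent of changes of 1 and 29 percent of changes of 0.5 (log2) were called for feed efficiency, 79 and 29 percent for sex, and 18 and 0 percent for the interaction. Each simulation changed 100 probe sets by 1 and 100 by 0.5 at once, with normal noise drawn independently for each probe set. Unchanged probe sets called were 5 for feed efficiency, 8 for sex and 2 for the interaction. The adjustment is stricter when fewer probe sets change, so these shares do not give the sensitivity for a single changed gene. The number of arrays limits the precision.

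The members, subfamilies, partner, pair and marker lists were chosen with earlier results of these data known. Named were, per subfamily, the 4 brightest and the 2 most variable tested genes; 6 genes per direction for feed efficiency, 4 for sex and 3 for the interaction by smallest unadjusted p; and 40 genes whatever their values, of which 34 were measured and 32 tested. KCNQ3's groups by sex, KCNG2's spread and counts of groups that do not overlap were looked at after the values were seen. Each array was taken as 1 pig, since the labels give each its own identifier. No sequence is printed, since no sequence table was at hand here.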

Additional observations from a re-analysis of the deposited data

Results flagged for a closer look

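In 56 named genes the lowest or highest of the 6 pigs of a feed efficiency group was compared with the others; a pig was listed when its gap to the nearest, as a share of the group's range, exceeded Dixon's 95% value for 6 values. Of 112 groups, 6 were listed, and chance lists about 1 in 20. The low feed efficiency pig numbered 1 was apart in 3 genes: KCNJ10 at 7.68 with the next at 8.10, KCNJ12 at 4.04 with the next at 4.51, and KCNT1 at 5.94 with the next at 6.11. The low feed efficiency pig numbered 2 was apart in KCNJ4, at 3.37 with the next at 4.04, and in KCNK13, at 5.53 with the next at 5.86. The high feed efficiency pig numbered 3 was apart in KCNMB3, at 3.68 with the next at 4.23. Without it, the KCNMB3 difference was 0.02 in place of 0.12.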

How the results depend on the processing

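No alternative called a gene of the family: 0 passed an adjusted p of 0.05 for feed efficiency, sex or the interaction, also at a threshold of 0.1. No paired analysis was possible because the replicate numbers only follow the order of the samples. With equal array medians, 3 genes had an unadjusted p under 0.05 for feed efficiency, with medians of -0.0066 in the family, 0.0246 in the partner genes and, for the interaction, -0.0637. Without 1 pig, the feed efficiency count ran from 3 (without high pig 4 or low pig 2) to 6 and its median from -0.0525 to -0.0216; the partner count from 0 to 1 and median from -0.0270 to 0.0180; the sex count from 1 (without high pig 3) to 5, being 2 without high pig 4 or 5 or low pig 2 or 5; the interaction count from 3 to 9, being 5 without low pig 3, 5 or 6, and its median from -0.0421 to 0.0122. With the dimmest 50 percent left out, the interaction count was 5 with a median of -0.0421 and the partner count 1, as it was with trend and robust settings. With identifier run as a term, the sex count was 1 with a median of 0.0697. With the mean of a gene's probe sets, median signals were 5.34 (voltage-gated), 4.57 (inward rectifier), 4.97 (two-pore, and 5.55 over its tested members) and 4.64 (calcium-activated, SD 0.19), KCNMB4 turned to 0.21 for sex, and r turned to -0.0622 for KCNJ8 with ABCC9 and -0.40 for KCNJ3 with KCNJ9. Without the 2 farthest pigs, r turned to -0.0804 for KCNJ8 with ABCC9, -0.17 for KCNJ11 with ABCC8, -0.45 for KCNJ3 with KCNJ6, -0.33 for KCND2 with DPP10 and -0.0647 for KCNA1 with KCNAB2. The share of all genes was not taken under these alternatives, so their counts have no background beside them. The causes were not tested. Dim genes limit what can be read, since 64 of 74 tested genes lay within the range of background probe sets.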
